A study of Mus musculus with 6 samples.

Results

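The Dlk1-Meg3 region is an imprinted cluster on mouse chromosome 12, and 8 genes of it and its edge were described: Dlk1, Meg3, Rian, Mirg, Rtl1, Dio3, Begain and Slc25a29. The members were selected on their measured levels in KO against WT neural stem cells, as genes of the region and its neighbours, out of 24503 gene symbols in the count table. Values from that contrast are therefore given as a description and not as a test. Of the 8 members, 5 passed the filter on low counts and 3 (Rtl1, Mirg and Dio3) had no count in any library.

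RNA was sequenced from primary neural stem cells of the mouse embryonic cortex at E13.5, selected by neurosphere growth and then spread on laminin in medium with FGF and EGF. WT cells (n = 3 libraries) carried floxed Phf2 alleles (Phf2 flox/flox) without Cre, and KO cells (n = 3) had those alleles together with a Nestin-Cre transgene, in which the promoter of Nestin, a gene of neural progenitors, drives the recombinase. Phf2 encodes a Jumonji-family histone lysine demethylase, and the comparison asks what its deletion changes in these cells. The controls carry no Cre, so the effect of the transgene and that of the deletion cannot be told apart. The labels do not say whether the libraries of a group came from separate embryos or cultures, so every p-value reflects the spread of these libraries alone, and that spread may be technical.

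At an imprinted cluster the 2 parental copies are used unequally. In the Dlk1-Meg3 region the protein-coding genes Dlk1, Rtl1 and Dio3 are expressed from the paternal copy, and the long noncoding RNAs Meg3, Rian and Mirg, with the small nucleolar RNAs and microRNAs they carry, from the maternal copy. Methylation at an intergenic control region between Dlk1 and Meg3 sets which copy does which. In brain development the region is known for Dlk1, a membrane protein of the Notch ligand family that acts in neural stem cell niches, and for Meg3, which is abundant in neurons. The counts do not separate the parental copies.

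The promoter sequences of Dlk1, Meg3 and Rian are shown because these 3 genes had the largest differences among the members. They are RefSeq sequences of GRCm38.p6, from 250 bases before to 50 after the start, on the plus strand, at chr12:109452573-109452872, chr12:109540746-109541045 (the first of 2 entries for Meg3) and chr12:109603695-109603994. Capitals mark TGCCGC, the hexamer read by the imprint-keeping zinc finger protein Zfp57 when methylated, and TATAAA, each searched on both strands.
Dlk1: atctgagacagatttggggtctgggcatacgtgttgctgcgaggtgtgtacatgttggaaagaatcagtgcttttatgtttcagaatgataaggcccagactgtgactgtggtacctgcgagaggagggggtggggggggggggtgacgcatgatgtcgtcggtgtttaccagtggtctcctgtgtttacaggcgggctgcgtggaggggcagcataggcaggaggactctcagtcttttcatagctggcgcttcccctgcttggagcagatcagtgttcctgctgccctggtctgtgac
Meg3: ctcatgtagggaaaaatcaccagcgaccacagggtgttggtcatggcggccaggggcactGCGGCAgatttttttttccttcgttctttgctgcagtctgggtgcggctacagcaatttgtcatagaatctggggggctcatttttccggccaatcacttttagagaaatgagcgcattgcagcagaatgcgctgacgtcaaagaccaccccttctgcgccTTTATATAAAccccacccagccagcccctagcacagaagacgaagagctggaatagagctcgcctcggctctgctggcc
Rian: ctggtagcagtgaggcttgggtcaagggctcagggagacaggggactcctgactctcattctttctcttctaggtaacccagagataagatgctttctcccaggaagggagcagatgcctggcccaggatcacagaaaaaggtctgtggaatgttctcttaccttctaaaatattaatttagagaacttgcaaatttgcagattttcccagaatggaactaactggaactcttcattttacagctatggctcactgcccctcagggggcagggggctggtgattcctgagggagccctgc

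The 3 promoters differed in composition. That of Meg3 held 13 CpG and 53.7% GC, that of Dlk1 9 CpG and 55.7% GC, and that of Rian 0 CpG and 49.3% GC, against a median of 7 CpG and 52.7% GC over 32851 RefSeq promoter entries of the same length. The Meg3 sequence held 1 match to TGCCGC, on the minus strand, and 2 overlapping matches to TATAAA, 1 on each strand. The Dlk1 and Rian sequences held neither motif. TGCCGC was present in 11.6% and TATAAA in 13.6% of all entries, and a match is a description of letters, not of binding.

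The microRNAs of the region are shown because the long noncoding members are their hosts. RefSeq places 62 microRNA genes with 116 mature entries between the outer ends of Slc25a29 and Dio3. By the GENCODE bounds of the hosts, 2 of these lie inside Meg3, 3 inside Rian and 14 inside Mirg on the same strand. The RefSeq model of Meg3 reaches further, overlapping Rtl1 by 6830 bases, so these counts depend on the annotation. Some of the mature sequences hosted by Meg3 and Rian are printed, and with them miR-127-3p, which lies opposite Rtl1. The seed (bases 2 to 8) is in capitals. Others, miR-1906 inside Meg3 among them, are not shown.
miR-770-5p (Meg3): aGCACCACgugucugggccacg
miR-770-3p (Meg3): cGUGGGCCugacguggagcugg
miR-341-3p (Rian): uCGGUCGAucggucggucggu
miR-1188-5p (Rian): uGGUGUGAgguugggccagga
miR-370-3p (Rian): gCCUGCUGggguggaaccuggu
miR-127-3p (opposite Rtl1): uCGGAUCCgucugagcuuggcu

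These 6 have 6 different seeds, each found once in the interval. Across the interval there were 106 seeds, of which 9 were shared by 2 or more names, covering 18 mature microRNAs. 2 of those pairs follow, the first between neighbours of the same cluster and the second including a microRNA hosted by Rian.
miR-379-3p: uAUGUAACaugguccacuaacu
miR-411-3p: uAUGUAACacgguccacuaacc
miR-370-5p (Rian): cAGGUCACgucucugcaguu
miR-1193-3p: uAGGUCACccguuuuacuauc

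All 62 microRNA genes had a row in the table and all were at 0 in every library. Of 1169 microRNA rows across the genome, 7 (0.599%) were above 0, so the zeros say nothing particular to the region. The hosts were measured as long transcripts only.

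Total counts were 33413444 to 46890314 per library, and 13683 genes were tested. Phf2, the targeted gene, averaged 92.3 ± 15.5 CPM (depth-scaled counts) across WT libraries against 51.1 ± 4.56 across KO libraries (SD, n = 3 each), with every KO library below every WT library. Counts per gene do not show whether the floxed part was lost, so how complete the deletion was cannot be told from them. Libraries with number 1 stood apart from numbers 2 and 3 in both groups. The deviations of WT 1 and KO 1 from their group means correlated at 0.854 across genes, while either correlated with libraries of the other numbers in the opposite group at −0.735 to −0.684. Results are therefore also given with the replicate number as a block and within numbers. The pair KO 2 and KO 3 was the closest within a group, with a median chi-square per gene of 1.02, against 5.25 for WT 2 and WT 3 and 0.455 from counting alone.

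Among the paternally expressed genes, Dlk1 (12:109452823 to 109463336, plus strand, GRCm38) was low in WT and close to undetected in KO. WT 1 to 3 held 64, 135 and 169 reads of it, and KO 1 to 3 held 10, 7 and 1. Scaled, these were 1.39, 3.35 and 3.58 CPM for WT and 0.243, 0.165 and 0.0297 CPM for KO. The groups did not overlap, WT 1 was the lowest of the WT libraries, and KO 1 was the highest of the KO libraries. The means were 2.77 ± 1.20 and 0.146 ± 0.108 CPM (SD, n = 3 each), and the log2 fold change of KO against WT was −4.18 ± 0.677 (SE), or −4.08 ± 0.468 with the replicate block. Pooled over libraries, 368 WT counts against 18 KO counts made WT 17.9-fold higher, with an exact 95% Clopper-Pearson interval of 11.2 to 30.6. Such intervals cover counting error only and hold no spread between libraries. They are too narrow where reads were copied by PCR, since such reads are not independent molecules.

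Rtl1, a paternally expressed gene derived from a retrotransposon, and Dio3, which encodes the deiodinase that inactivates thyroid hormone, had 0 counts in all 6 libraries. At these depths 3 counts, the limit that a count of 0 allows, come to 0.0652, 0.0744 and 0.0636 CPM for WT 1 to 3 and to 0.0730, 0.0707 and 0.0892 CPM for KO 1 to 3. No comparison of these genes is possible. Rtl1 (12:109589193 to 109600330, minus strand) lies opposite microRNA genes, and in RefSeq its model overlaps Meg3 by 6830 bases and Rian by 474. The strand setting of the counting was not stated in the labels or files, so how reads were shared among Rtl1, Meg3 and Rian is uncertain. Dio3 lies at 12:110279068 to 110281097 on the plus strand.

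Among the maternally expressed noncoding RNAs, Meg3 (12:109541001 to 109571726, plus strand, a long intergenic noncoding RNA in GENCODE) had 20, 117 and 96 reads in WT 1 to 3 against 2, 0 and 5 in KO 1 to 3. These came to 0.435, 2.90 and 2.03 CPM against 0.0487, 0 and 0.149 CPM. KO 2, at 0, has a limit of 0.0707 CPM. Every KO library was below every WT library, and WT 1 was again far under WT 2 and WT 3. The means were 1.79 ± 1.25 and 0.0658 ± 0.0758 CPM (SD, n = 3 each), and the log2 fold change was −4.80 ± 1.08 (SE), or −4.76 ± 0.586 with the block. Pooled, WT was 29.2-fold higher (233 against 7 counts), with an exact Clopper-Pearson interval of 14.0 to 73.5.

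Rian, which carries clustered box C/D small nucleolar RNAs (12:109603940 to 109661716, plus strand), followed the same order. WT 1 to 3 held 23, 88 and 80 reads of it, or 0.500, 2.18 and 1.70 CPM. KO 1 to 3 held 3, 3 and 1, or 0.0730, 0.0707 and 0.0297 CPM. WT 1 was the lowest WT library and the groups did not overlap. The means were 1.46 ± 0.865 and 0.0578 ± 0.0243 CPM (SD, n = 3 each), with a log2 fold change of −4.55 ± 0.734 (SE), or −4.49 ± 0.482 with the block. Pooled, WT was 23.9-fold higher (191 against 7 counts), with an exact Clopper-Pearson interval of 11.4 to 60.4. Mirg (12:109729764 to 109749460, plus strand), the most distal microRNA host of the 3 noncoding members, had 0 counts in every library, with the same limits as Rtl1 and Dio3.

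The 2 genes at the proximal edge differed less. Begain, which encodes a protein of the postsynaptic density (12:109032187 to 109068217, minus strand), had 29, 20 and 21 reads in WT 1 to 3 against 5, 11 and 8 in KO 1 to 3. In CPM these were 0.631, 0.496 and 0.445 against 0.122, 0.259 and 0.238. WT 1 was the highest of the WT libraries and KO 1 the lowest of the KO libraries, the reverse of the order in Dlk1. The means were 0.524 ± 0.0959 and 0.206 ± 0.0741 CPM (SD, n = 3 each), and the log2 fold change was −1.34 ± 0.406 (SE), or −1.35 ± 0.433 with the block. Pooled, WT was 2.56-fold higher (70 against 24 counts; exact Clopper-Pearson interval 1.59 to 4.26).

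Slc25a29, which encodes a mitochondrial carrier of basic amino acids (12:108825873 to 108835883, minus strand), was the one member with a substantial level in KO. WT 1 to 3 held 1121, 835 and 1084 reads of it, and KO 1 to 3 held 834, 739 and 555. In CPM these were 24.4, 20.7 and 23.0 against 20.3, 17.4 and 16.5, and the lowest WT library lay just above the highest KO library. The means were 22.7 ± 1.85 and 18.1 ± 1.98 CPM (SD, n = 3 each), with a log2 fold change of −0.33 ± 0.135 (SE), or −0.33 ± 0.0853 with the block. Pooled, WT was 1.25-fold higher (3040 against 2128 counts), and its exact Clopper-Pearson interval was 1.19 to 1.33.

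**Figure D1:**
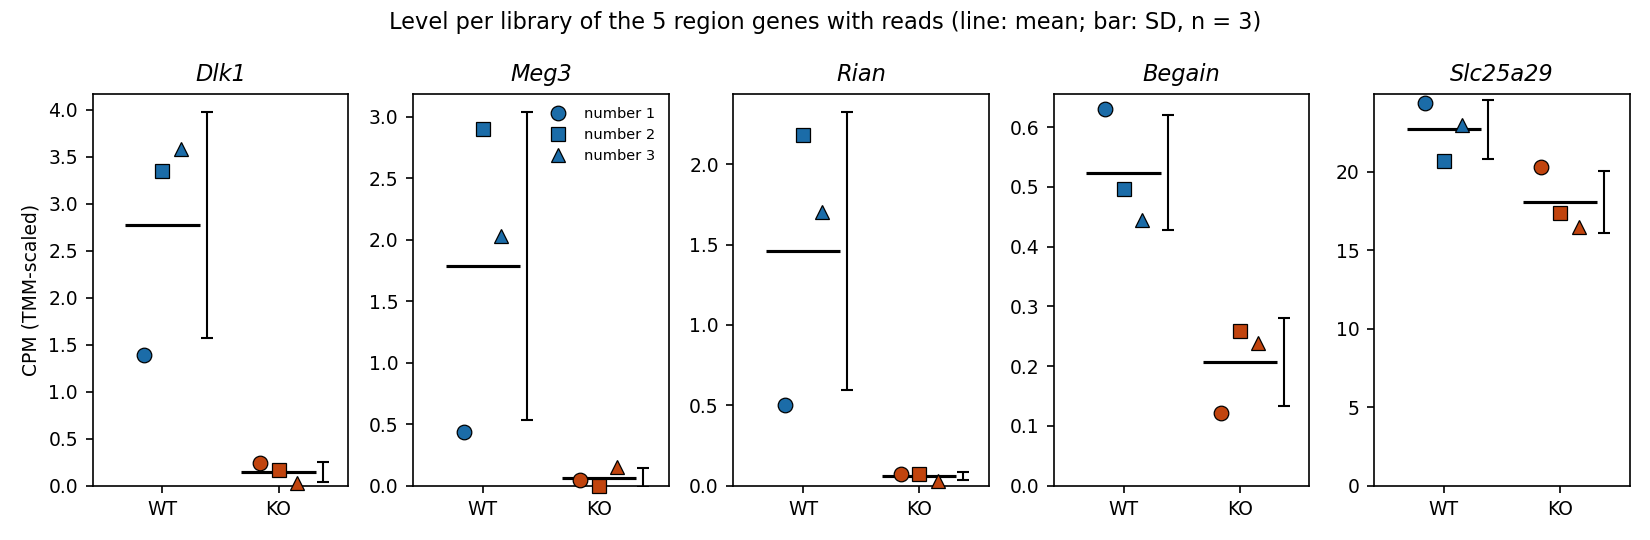
TMM-scaled CPM (vertical axis, linear, from 0, a scale per gene) of the 5 tested members in each library, WT in blue and KO in orange; the symbol gives the library number, the line the mean and the bar the SD (n = 3). In all 5 panels the KO libraries lie below the WT libraries, with Dlk1, Meg3 and Rian near 0 in KO and Slc25a29 at 16.5 CPM or more.

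In all 5 tested members every KO library was below every WT library, which held for 6.71% of all tested genes. The filter asked for about 0.236 CPM in 3 libraries. On CPM before TMM scaling, Dlk1, Meg3 and Rian reached it in 3 WT and 0 KO libraries, so they entered the test through WT alone and had to be lower in KO. Begain reached it in 3 WT and 2 KO libraries, and Slc25a29 in all 6. Without the block, the quasi-likelihood test of edgeR, Benjamini-Hochberg adjusted, called 0 of the 5 members, against 0.0585% of all tested genes in either direction, while all 5 had an unadjusted p under 0.05 and DESeq2 called 3 (Dlk1, Meg3 and Rian). With the replicate block, Dlk1, Meg3, Rian and Slc25a29 were called lower, and Begain was not. Slc25a29 was not called with numbers 2 and 3 alone or with the counts of KO 2 and KO 3 summed. With the block 6.46% of all tested genes were called lower and 3.33% higher. The member counts are set beside these shares only as a description, since the members were selected on this contrast. Because RNA was measured in bulk, fewer cells that express a gene and less of its RNA per cell cannot be told apart.

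Among 13683 tested genes ordered by log2 fold change without the block, Meg3 was at place 1 from the lowest, Rian at place 2 and Dlk1 at place 4. Begain was at place 173 and Slc25a29 at place 1714. These places partly follow from the low KO counts, since the fold change of a gene with few counts depends on the prior count. In WT level Dlk1 stood above 16.6% of tested genes, Meg3 above 13.4% and Rian above 12.1%, while Begain stood above 5.43% and Slc25a29 above 43.6%.

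**Figure D2:**
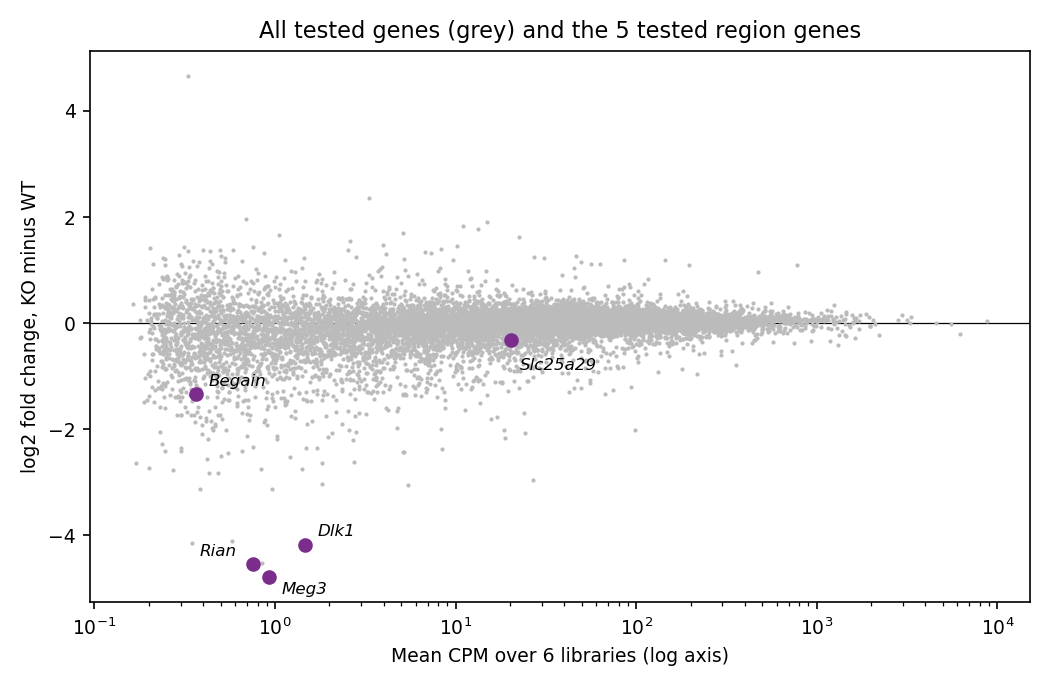
Log2 fold change of KO against WT on the vertical axis against mean CPM over the 6 libraries on a logarithmic horizontal axis for all 13683 tested genes (grey), with the 5 tested members named. Meg3, Rian and Dlk1 lie at the lower edge among genes of low level, and Slc25a29 lies near 0.

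Levels can be compared between genes per exonic length (GENCODE vM21). On this scale the order in WT was Slc25a29 at 8.71 ± 0.710 CPM per kb, Dlk1 at 0.490 ± 0.212, Begain at 0.119 ± 0.0218, Meg3 at 0.0990 ± 0.0691 and Rian at 0.0801 ± 0.0474 CPM per kb (SD, n = 3 each). Begain, Meg3 and Rian did not differ from one another beyond their spread. In KO the order was Slc25a29 at 6.95 ± 0.760, Begain at 0.0467 ± 0.0168, Dlk1 at 0.0258 ± 0.0191, Meg3 at 0.00364 ± 0.00419 and Rian at 0.00317 ± 0.00133 CPM per kb. In KO Begain and Dlk1 lay within their spread of each other, as did Meg3 and Rian.

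The members were chosen with earlier results of these data known, so their pattern among WT libraries is a description too. Dlk1, Meg3 and Rian were each lower in WT 1 than in WT 2 and WT 3. Together they had 107, 340 and 345 reads in WT 1 to 3 against 15, 10 and 7 in KO 1 to 3. Scaled, the sum was 2.33, 8.43 and 7.31 CPM against 0.365, 0.236 and 0.208 CPM. WT 1 thus held less of this RNA than WT 2 and WT 3, while KO 1 was the highest of the KO libraries.

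Pooled WT 2 and WT 3 counts were above WT 1 for Meg3 (5.60-fold, exact Clopper-Pearson interval 3.53 to 9.35), Rian (3.84-fold, 2.47 to 6.22) and Dlk1 (2.50-fold, 1.90 to 3.32). For Begain the ratio was 0.743 (0.451 to 1.24) and for Slc25a29 0.900 (0.835 to 0.969). The 3 central genes thus lay higher in WT 2 and WT 3, whereas the interval of Begain included 1. For Slc25a29 the value rests on WT 2 (0.849 of WT 1, 0.776 to 0.930), since the interval of WT 3 over WT 1 included 1 (0.942, 0.866 to 1.03). These intervals set single libraries against each other and hold no replicate error. In a fit of number 1 against numbers 2 and 3 with the genotype as a term, the log2 fold change was −2.31 ± 0.563 for Meg3 and −1.69 ± 0.442 for Rian (SE). With edgeR's quasi-likelihood test and Benjamini-Hochberg adjustment both were called lower in number 1, at adjusted p = 0.0072 and 0.0101. DESeq2 kept the call of Meg3 (−2.10, adjusted p = 0.00442) and not that of Rian (−1.33, adjusted p = 0.0901). Dlk1 (−0.91 ± 0.447, adjusted p = 0.111 in the same edgeR test) was not called, nor were Begain (0.01 ± 0.404) and Slc25a29 (0.21 ± 0.0799) called lower. In that contrast 29.4% of all tested genes were called lower in number 1, so 2 of 5 members is near the background. The KO counts of Meg3 and Rian were 5 or fewer in every library and Rian was not lower in KO 1 than in KO 2 and KO 3, so both values rest on the WT libraries. Within KO alone Dlk1 was also higher in number 1 (log2 difference 1.19, no test), against −1.31 within WT alone.

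The share of each gene in the 3-gene signal was compared among WT libraries. Rian was 53.5% of the Meg3 and Rian counts in WT 1 (exact Clopper-Pearson interval 37.7 to 68.8), 42.9% in WT 2 (36.1 to 50.0) and 45.5% in WT 3 (37.9 to 53.1). These intervals overlap, so no change in the balance of the maternally expressed RNAs was detectable at this depth. Per exonic kb, Rian stood at 1.14, 0.746 and 0.827 times Meg3. Dlk1 was 76.2% of the Dlk1 and Meg3 counts in WT 1 (65.7 to 84.8), 53.6% in WT 2 (47.2 to 59.9) and 63.8% in WT 3 (57.7 to 69.6). WT 1 and WT 2 differed by more than counting error. Per exonic kb, Dlk1 stood at 10.2, 3.69 and 5.63 times Meg3.

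Within numbers WT was higher than KO for every tested member. This direction was fixed in advance, since the members were selected on this contrast and every KO library was below every WT library. Only the sizes are described. Between WT 1 and KO 1, WT was higher for Meg3 (8.94-fold, exact Clopper-Pearson interval 2.17 to 78.9), Rian (6.85-fold, 2.07 to 35.6), Dlk1 (5.72-fold, 2.92 to 12.5), Begain (5.18-fold, 1.98 to 17.2) and Slc25a29 (1.20-fold, 1.10 to 1.32). Between numbers 2 and 3, the WT counts were higher for Meg3 (37.0-fold, 15.6 to 115), Rian (36.5-fold, 14.0 to 135), Dlk1 (33.0-fold, 16.5 to 77.2), Begain (1.88-fold, 1.06 to 3.42) and Slc25a29 (1.29-fold, 1.20 to 1.38). Dlk1 had intervals that did not overlap between number 1 and numbers 2 and 3, and those of the other 4 members overlapped.

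The members were unevenly placed along 1.46 Mb. Relative to the start of Meg3, the lower ends of the genes lie at −715 kb for Slc25a29, −509 kb for Begain, −88.2 kb for Dlk1, 48.2 kb for Rtl1, 62.9 kb for Rian, 189 kb for Mirg and 738 kb for Dio3. The table held 71 other rows between the outer members, of which 68 were at 0 in every library. The other 3 were tested, and all 3 lie between Slc25a29 and Begain. Wars, a tryptophanyl-tRNA synthetase gene, had a log2 fold change of −0.07 at a WT mean of 106 and a KO mean of 101 CPM. Slc25a47, another mitochondrial carrier gene, was at −0.08 and Wdr25 at −0.07. None of the 3 was called in either fit, and their groups overlapped.

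Outside the interval, within 1 Mb, 23 of 28 rows were tested, with a median log2 fold change of −0.03 and a range of −0.64 to 0.27, against a median of 0.01 over all tested genes. The nearest tested genes on either side were Yy1, a zinc finger transcription factor (0.02 ± 0.175, 109 CPM in WT and 111 in KO), and Ppp2r5c, a phosphatase subunit gene (−0.03 ± 0.0806, 211 and 206 CPM; SE). The genes of highest level, Hsp90aa1 (874 CPM in WT and 901 in KO) and Dync1h1 (525 and 537 CPM), were at 0.04 and 0.03. No gene was called without the block. With it, Cyp46a1, which encodes the brain cholesterol 24-hydroxylase, fell, from 3.06 ± 0.280 to 1.96 ± 0.420 CPM (SD, n = 3 each). Its log2 fold change with the block was −0.65 ± 0.170 (SE; adjusted p = 0.0387, quasi-likelihood test of edgeR, Benjamini-Hochberg adjusted), and without it −0.64 ± 0.240 (adjusted p = 0.769).

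**Figure D3:**
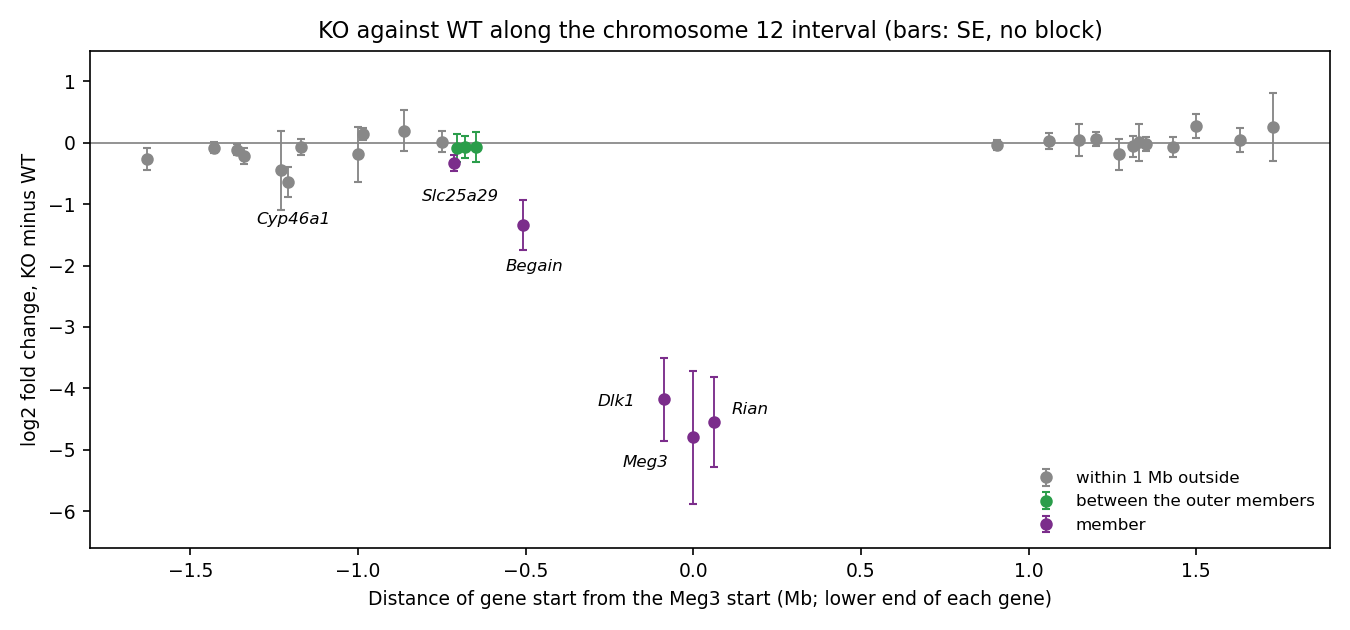
Log2 fold change of KO against WT (vertical axis; bars, SE without the block) against the distance in Mb of each gene's lower end from that of Meg3 (horizontal axis) for tested genes in and around the interval. Dlk1, Meg3 and Rian lie at −4.18 to −4.80, Begain at −1.34, and the other genes, Slc25a29 among them, between −0.64 and 0.27.

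The listed and neighbouring genes described next came to 209 tested. Without the block edgeR called 2 of them, and 22 had an unadjusted p under 0.05. DESeq2 called 10, and edgeR with the block called 40. Over all genes, 13683 of them tested by edgeR, these counts were 8, 795, 241 and 1340. Genes that act on the imprint were listed first. Of 26 (the methyltransferases, Zfp57, Trim28, Tet enzymes and others), 24 were tested and Dnmt3l and Dppa3 were at 0. Without the block none was called by edgeR. With it, 2 rose and 0 fell: Zfp57 (from 15.6 to 22.3 CPM, log2 fold change 0.48 ± 0.112, SE; adjusted p = 0.0257, edgeR's quasi-likelihood test) and Uhrf1, which directs maintenance methylation to newly copied DNA (0.36 ± 0.0747; adjusted p = 0.0142 in the same test). With the counts of KO 2 and KO 3 summed, 0 of them were called. The list's median log2 fold change without the block was 0.17, against 0.01 for all genes.

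Of 18 Notch pathway genes, the family of Dlk1, all 18 were tested and 0 were called without the block. With it, 2 rose and 1 fell: Hes5, a Notch target (0.32), and Heyl (1.40) rose, and Dner, a noncanonical Notch ligand expressed in neurons (−0.55 ± 0.0731, SE; adjusted p = 0.00128, edgeR's quasi-likelihood test), fell. Neither rise was called with numbers 2 and 3 alone or with KO 2 and KO 3 summed, and 1 gene was called lower in each. The list's median was 0.04. The list of 23 thyroid hormone genes, the pathway of Dio3, had 17 tested and a median of 0.04. With the block Dio2, the deiodinase that activates thyroid hormone, fell from 8.51 ± 1.29 to 5.09 ± 0.845 CPM (SD, n = 3 each; log2 fold change −0.74 ± 0.165, SE; adjusted p = 0.0194 in the edgeR test), and Rxra rose (0.26; adjusted p = 0.0432 in the same test). With KO 2 and KO 3 summed 0 thyroid genes were called higher and 1 lower, and with numbers 2 and 3 alone 0 were called. Dio1 was at 0, as was Dio3 itself. Without the block no thyroid gene was called.

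Of the retrotransposon-derived genes related to Rtl1, 10 of the 14 in the table were tested, and with the block Arc, a neuronal activity gene, fell (−0.40; adjusted p = 0.00807, edgeR's quasi-likelihood test). Peg10 (463 CPM in WT and 569 in KO) and Pnmal2 (64.0 and 60.2 CPM) were not called. Of 10 tested mitochondrial carrier genes related to Slc25a29, 0 were called in either fit and the median was −0.14. The highest, Slc25a18 (143 CPM in WT and 128 in KO) and Slc25a12 (92.0 and 83.0 CPM), were not called. Of 15 postsynaptic genes, the group of Begain, 3 were called lower with the block, beside 6.46% of all tested genes. They were Dlg2 (−1.73, adjusted p = 0.0369 in the edgeR test), Shank2 (−0.68) and Dlgap3 (−0.32). In KO 1 to 3 Dlg2 held 4, 7 and 5 reads, under the level of about 0.236 CPM that the filter asked for. Like Dlk1, Dlg2 entered the test through WT alone and had to be lower in KO, so its call is a description only. With numbers 2 and 3 alone, or with KO 2 and KO 3 summed, 1 of the 15 was called lower.

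Imprinted genes outside the region were described in the same way. Of 47 listed, 37 were tested, 4 (Kcnq1, Phlda2, Dcn and Kcnk9) were at 0, and the median was −0.06. Without the block 0 were called. With it 4 fell and 1 rose, beside 6.46% of all tested genes called lower and 3.33% called higher. Grb10, a growth-restraining adaptor, fell from 21.4 to 8.36 CPM (log2 fold change −1.36 ± 0.0929, SE; adjusted p = 2.36e-05, edgeR's quasi-likelihood test). Ndn (−0.54 ± 0.0845; adjusted p = 0.00325 in the same test), a gene of the Prader-Willi region, Mest (−0.35; adjusted p = 0.00957) and Cdkn1c (−0.59), a cell cycle inhibitor, also fell. Asb4 (2.34 ± 0.209; adjusted p = 0.000131) rose. With KO 2 and KO 3 summed, 1 was called higher and 2 lower.

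The profiles most like those of Meg3 and Dlk1 over the 6 libraries were found among genes of at least 5 CPM, by the root-mean-square (RMS) difference of centred log2 CPM. For Meg3 these were Rec8 (0.935), Thbs2 (1.08), Prkg1 (1.17), Wbscr17 (1.23) and Aldh1l1 (1.27). For Dlk1 they were Prkg1 (0.868), Rec8 (0.894), Wbscr17 (1.03), Cybrd1 (1.06) and Nrn1 (1.06). Among the members, Rian was at 0.775 from Meg3 and 0.465 from Dlk1, and Dlk1 and Meg3 were 1.12 apart. Rian, Meg3 and Dlk1 lie under 5 CPM, and other genes of such low level were not searched. These distances therefore cannot be ranked against those of the genes found. Begain was at 1.77 from Meg3 and 1.63 from Dlk1, and Slc25a29 at 2.07 and 1.89. A profile without any change would lie at 2.18 from Meg3 and 2.05 from Dlk1. The 6 libraries share the difference between groups and that of number 1, so these values are a description.

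Because Dlk1 and Meg3 are also expressed outside neural stem cells, marker levels of other cell types are given beside them. Markers of the labelled cell type were high. The summed level of 12 neural stem cell markers was 11000 to 12100 CPM in WT and 10800 to 11900 CPM in KO, and with the block 1 was called higher (Hes5) and 1 lower (Prom1, −1.35). Hes5 was not called with numbers 2 and 3 alone or with KO 2 and KO 3 summed. Of 15 neuron markers 14 were tested and none was at 0 in all libraries. With the block 7 fell and 0 rose, Syt1 (−0.93), Elavl4 (−0.33), Celf4 (−1.09) and Myt1l (−2.46) among them, and the list's median was −0.45. With numbers 2 and 3 alone 3 were lower, as with KO 2 and KO 3 summed. The summed level was 861 to 1180 CPM in WT and 908 to 1130 CPM in KO, of which Map2 and Gap43 made up 79.5 to 92.4%.

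Astrocyte markers (10 tested, 2 higher and 5 lower with the block) summed to 805 to 1960 CPM in WT and 1010 to 2420 CPM in KO. With the block Aldh1l1 (−1.97), Gfap (−1.12) and Slc1a2 (−0.81) fell and Sparcl1 (1.13) rose. In numbers 2 and 3 alone 1 astrocyte marker was higher and 3 were lower, as was the case after summing KO 2 and KO 3. Oligodendrocyte-lineage markers (9 tested of 11) summed to 2380 to 3250 and 2400 to 2830 CPM, with 2 higher (Bcas1, 1.19, and Pdgfra, 0.56) and 2 lower (Nkx2-2, −1.23, and Sox10, −0.92). Of these, Bcas1 and Nkx2-2 were also called without the block, the only calls of any list there. Mesenchymal markers (7 tested of 12, 2 higher and 2 lower) summed to 193 to 234 and 206 to 228 CPM, with Dcn at 0 and 9 of 12 under 1 CPM. Col1a2 (−1.91) and Thy1 (−1.83) fell and Twist1 (4.65) and Foxc1 (0.36) rose.

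Endothelial and mural markers summed to 7.87, 30.3 and 33.0 CPM for WT 1 to 3 and to 9.17, 19.6 and 19.3 CPM for KO 1 to 3. Astrocyte markers were lowest in WT 1 too (805, 1840 and 1960 CPM for WT 1 to 3). Of all tested genes, 29.4% were called lower in number 1. KO 1 had the lowest endothelial and mural sum in KO, but the highest sum of Dlk1, Meg3 and Rian. Acta2, a smooth muscle actin gene, made up most of each endothelial and mural sum (28.3 CPM in WT 2 and 5.48 CPM in WT 1). Cdh5 was at 0, 9 of 11 were under 1 CPM, 3 were tested and 0 were called without or with the block, Acta2 (−0.44 with the block) and Kdr (0.09) included. With numbers 2 and 3 alone 1 of the 3 was called lower. Microglial markers summed to 0.421 to 0.804 CPM in WT and 0.731 to 1.22 in KO, with Aif1, Ptprc, C1qa and C1qb at 0 of 9. Of these, P2ry12 averaged 0.568 CPM in WT and 0.890 in KO, and Csf1r 0.0431 and 0.0238. Erythroid markers summed to 0.248 to 0.297 and 0.212 to 0.297 CPM, with Hbb-bs, Hbb-bt and Hbb-y at 0 of 7. What part, if any, the neuron and vascular marker levels have in the values of Dlk1, Meg3, Rian and Begain was not tested.

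**Figure D4:**
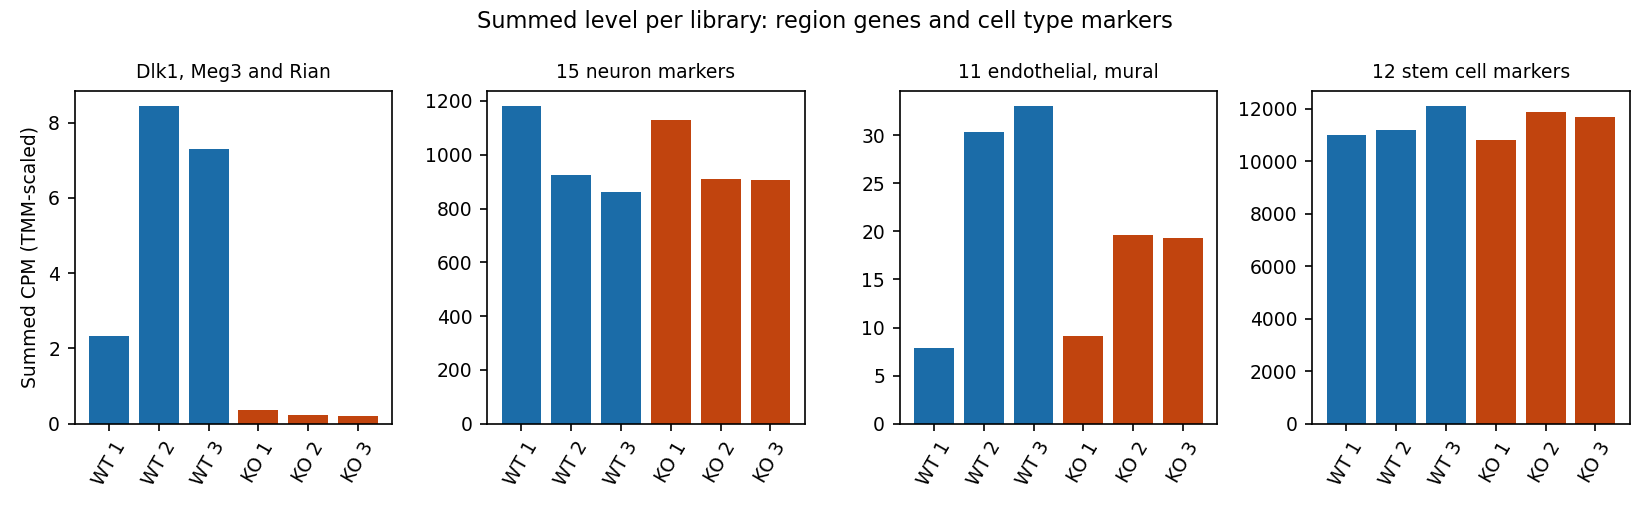
Bars give the summed TMM-scaled CPM (linear axes from 0, a scale per panel) in each library, WT in blue and KO in orange, for Dlk1, Meg3 and Rian and for the neuron, endothelial and mural, and neural stem cell marker lists. The 3-gene sum lies at 0.208 to 0.365 CPM in KO, below the 2.33 CPM of WT 1, whereas the groups overlap in the other 3 panels.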

How the data were processed

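RNA-seq libraries of 3 WT and 3 KO neural stem cell samples were compared, grouped and numbered by their titles. The deposited table of all 6 libraries holds integer counts for each symbol, without normalization, and no other unit was used. FastQC, Trim Galore with cutadapt, Bowtie2, RSEM and the build mm10 are named in the submitters' processing notes. Versions, annotation, strand setting and the rounding of RSEM estimates were not stated there, in the labels or in the files. Members and gene lists were chosen with earlier results of these data known.

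All rows were fitted in R 4.3.3 with edgeR 4.0.16 (filterByExpr with a minimum count of 10, TMM, robust quasi-likelihood test, two-sided, Benjamini-Hochberg adjustment over 13683 genes, called under 0.05). Standard errors are the log2 fold change over the square root of F. CPM values are TMM-scaled, and ratios of pooled counts are scaled by the same library sizes. Libraries of 33413444 to 46890314 counts make 3 counts 0.0636 to 0.0892 CPM. Alternatives were DESeq2 1.42.0, other scalings, no filter, left-out libraries, number 1 as a block, numbers 2 and 3 alone, KO 2 and KO 3 summed, and the replicate block. The fit was tested on simulated data that held no difference between number 1 and the other numbers. That test therefore cannot show how the libraries of number 1 should be treated.

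Same-numbered libraries deviated together (0.854, 0.603 and 0.582, all over the limit of 0.1), so the numbers were treated as pairs. The pairing comes from these correlations, not from the labels, and WT 2 with KO 3 (0.639) and WT 3 with KO 2 (0.577) were as close, so it separates number 1 from the rest only. KO 2 and KO 3 differed by more than counting noise (19.5% of genes over the 95% chi-square limit) and were kept as separate samples.

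Positions and exon lengths are from GENCODE vM21 on GRCm38, the assembly mm10 names (23334 symbols, 95.2%, matched 1 position, 1-based). Promoters and microRNAs are RefSeq sequences of GRCm38.p6. Named genes were all members. From each list and each set of neighbours, up to 4 genes called in either fit were named by lowest p with the block, or, with fewer than 2 calls, its 2 genes of highest CPM. The nearest tested gene on either side of the interval and the 5 profiles most like Meg3 and like Dlk1 were named too. Cdkn1c and the marker genes Acta2, Map2 and Gap43 are named as well, having been picked after their values were seen. The erythroid genes that the rule picks are not reported here.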

Additional observations from a re-analysis of the deposited data

How the results depend on the processing

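Calls depended on how the library numbers were treated. edgeR without a block called 8 genes (795 at an unadjusted p under 0.05), total-count scaling 4, DESeq2 241, the replicate block 1340, DESeq2 with the replicate block 1194, number 1 as the block 1445, numbers 2 and 3 alone 743, KO 2 and KO 3 summed 688, and leaving out 1 library 0 to 21 (21 without WT 1). For the 5 tested members these were 0 by edgeR (5 unadjusted), 3 by DESeq2, 4 with the replicate block, 3 by DESeq2 with the replicate block, 4 with number 1 as the block, 3 in numbers 2 and 3 alone, 3 after summing KO 2 and KO 3, and 0 to 1 without 1 library (Rian, without WT 1). For 209 tested listed and neighbouring genes the counts were 2, 10, 40, 37, 45, 26 and 24, and 0 to 3 without 1 library. RLE and upper-quartile scaling and no filter left all 3 counts within 1.5 times. No tested member's log2 fold change reversed over 16 alternatives. With every KO library below every WT library, leaving out libraries could not reverse one. Dlk1 ranged from −5.01 to −3.75, Meg3 from −6.06 to −4.17, Rian from −5.12 to −4.14, Begain from −1.54 to −0.90 and Slc25a29 from −0.42 to −0.26. In the contrast of number 1, Begain (0.01) reversed to −0.04 with upper-quartile and with total-count scaling, −0.01 without the filter and −0.11 by DESeq2. Dlk1 (−0.91) was at 1.19 within KO alone, Begain at 0.44 within WT and −0.94 within KO, and Rian at 0.53 within KO alone, where each library held 3 counts or fewer. Rian in that contrast lost its call by DESeq2. The cause was not tested. Leaving out 1 library leaves 2 in its group. KO counts of 0 to 10 for Dlk1, Meg3 and Rian limit the precision of their fold changes, and sequencing depth cannot show whether Rtl1, Mirg and Dio3 differ.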
